A study of Mus musculus with 10 samples.

Results

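The chemokines and interleukins and their receptors were taken as 1 gene group: every entry of the deposited table whose symbol begins with Ccl, Cxcl, Ccr, Cxcr or Il followed by a digit, with hyphenated names left out. Of the 26335 entries, 102 met this rule and stood for 100 symbols, Il11ra2 being listed with the same values at both of its entries and Ccl27 with different values at its pair. The mean level over the 10 libraries was above 0 on the log2 CPM scale (log2 of read counts scaled to a common library size, to which the authors had added a small prior count) for 42 of the 102, and these were tested. The other 60 lay at or below that limit. Just inside it was Il4i1, at a mean of 0.018 log2 CPM, and just outside it Cxcr4, at -0.11 log2 CPM. Of the 42 tested genes, 12 had 1 group with a mean at or below 0, the control group for 4 and the stiripentol group for 8.

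The libraries came from mSCLC-2405, a mouse small cell lung cancer line derived from a primary tumour and grown in RPMI medium with serum. The 5 control libraries came from cells kept with DMSO, and the 5 stiripentol libraries from cells kept with 250 μM stiripentol, an anti-epileptic drug that inhibits lactate dehydrogenase, each for 48 h. Both groups are cultures of this 1 line. The sample records do not say that the libraries of a group came from separate cultures, and the p-values therefore measure the spread between these libraries, which may be technical.

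Chemokines are small secreted proteins that draw leukocytes along a gradient through receptors coupled to G proteins. Interleukins signal through receptors of several families, those of the IL-1 family reaching NF-kB through Myd88 and most others acting through JAK kinases and STAT factors. Tumour cells, fibroblasts and epithelial cells of the lung are all known to make chemokines and alarmins such as Il33, and many of the receptors are found mainly on leukocytes.

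The control libraries held 22375625 (control 5) to 65299372 reads and the stiripentol libraries 55015760 to 60670901 reads, and the tested genes of the group had 6 to 25922 reads per library. By their correlation over all tested genes the libraries of each group fell into 2 sets. Set A held controls 4 and 5 with stiripentol 1 and 2, and set B held controls 1 to 3 with stiripentol 3 to 5. Within a set, libraries of 1 group had correlations of 0.983 to 0.997, against 0.920 to 0.939 between the sets. The libraries are numbered here as in the sample records. The controls and treated libraries of a set were joined by the order of the study's expression table, which lists the records' controls 4 and 5 first, before controls 1 to 3. What separates the sets is not given in the sources used here, and the change of each tested gene of the group that is given library by library below is therefore also given within each set. The neuroendocrine marker Insm1 had 0 to 10 reads per library and the epithelial marker Epcam had 1 read in 1 library, whereas Krt8, Krt18 and Ncam1 were abundant in each. Ptprc, which marks all leukocytes, had at most 3 reads in a library, whereas Lyz2, also taken as a leukocyte marker, had 16 to 216.

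The 5' flanks of 5 called genes are shown because they hold letters of 1 of 4 motifs of cytokine signalling. They are RefSeq sequences of build GRCm38.p6, from 250 bases before to 50 bases after a transcription start, written 5' to 3' on the strand of the gene, with each match in capitals. The motifs, searched on both strands, were AP-1 as TGANTCA, NF-kB as GGGANNTTCC, STAT as TTCNNNGAA and ISRE, the interferon-stimulated element, as GAAANNGAAA. Such a flank was at hand for 30 of the 42 tested genes and for 12 of the 18 called ones. The Cxcl1 flank (chr5:90890995-90891294, plus strand) holds a pair of overlapping NF-kB matches that begin 71 and 70 bases before the start. In the Cxcl10 flank (chr5:92348840-92349139, minus strand) an ISRE, an NF-kB and an AP-1 match follow each other at 213, 159 and 74 bases before the start. A single AP-1 match lies 53 bases before the start of Ccl9 (chr11:83578587-83578886, minus strand), and a single STAT match 99 bases before that of Ccl17 (chr8:94810203-94810502, plus strand). Of the 3 annotated starts of Il18r1, 1 (chr1:40465756-40466055, plus strand) has STAT matches at 219 and 152 bases before it.
Cxcl1: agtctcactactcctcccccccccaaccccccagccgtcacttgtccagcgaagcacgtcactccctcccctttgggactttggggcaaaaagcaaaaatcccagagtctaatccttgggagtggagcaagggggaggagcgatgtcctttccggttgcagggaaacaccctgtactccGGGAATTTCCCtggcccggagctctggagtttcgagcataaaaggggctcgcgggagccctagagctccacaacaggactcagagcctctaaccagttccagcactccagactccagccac
Cxcl10: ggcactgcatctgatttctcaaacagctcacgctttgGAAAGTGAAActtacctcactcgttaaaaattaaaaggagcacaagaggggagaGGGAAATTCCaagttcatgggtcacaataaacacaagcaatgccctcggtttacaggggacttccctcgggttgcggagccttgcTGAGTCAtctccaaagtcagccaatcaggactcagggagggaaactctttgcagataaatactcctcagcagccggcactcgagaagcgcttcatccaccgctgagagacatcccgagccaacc
Ccl9: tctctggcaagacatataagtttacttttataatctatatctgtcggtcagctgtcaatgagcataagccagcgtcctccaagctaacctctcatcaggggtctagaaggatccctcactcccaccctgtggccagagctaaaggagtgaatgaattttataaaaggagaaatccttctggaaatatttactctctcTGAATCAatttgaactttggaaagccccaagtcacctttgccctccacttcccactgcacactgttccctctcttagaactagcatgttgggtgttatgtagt
Ccl17: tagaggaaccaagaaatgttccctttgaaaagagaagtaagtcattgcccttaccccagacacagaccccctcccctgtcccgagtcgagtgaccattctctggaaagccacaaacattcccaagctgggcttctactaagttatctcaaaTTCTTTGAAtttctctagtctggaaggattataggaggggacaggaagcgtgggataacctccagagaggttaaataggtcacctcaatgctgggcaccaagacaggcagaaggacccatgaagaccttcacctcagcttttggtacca
Il18r1: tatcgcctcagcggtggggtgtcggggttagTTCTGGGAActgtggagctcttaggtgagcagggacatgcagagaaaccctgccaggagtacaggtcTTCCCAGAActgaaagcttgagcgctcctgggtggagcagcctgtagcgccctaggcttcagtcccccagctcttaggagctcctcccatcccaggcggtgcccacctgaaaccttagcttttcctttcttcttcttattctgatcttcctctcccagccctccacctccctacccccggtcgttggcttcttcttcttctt
Cxcl1 and Cxcl10 share the NF-kB letters and moved in opposite directions, as described below. Over all 32851 flanks of this length, 7.81% held the AP-1 letters, 1.47% the NF-kB letters, 8.30% the STAT letters and 3.44% the ISRE letters. Of the 42 flanks of the 30 tested genes, 7 held AP-1, 3 NF-kB, 2 STAT and 2 ISRE letters. A match is a description of these letters and was not tested as a site.

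With stiripentol, 16 of the 42 tested genes fell and 2 rose at an adjusted p under 0.05, and 24 did not pass the test. The 16 were 38.1% of the tested genes, against 14.1% of all 12306 genes tested in the table that fell, and the 2 were 4.76%, against 13.6% of all genes that rose. The median change was -0.70 on the log2 scale, compared with -0.06 over all genes, and 33 of the 42 changes were negative, compared with 6596 of 12306. In 14 of the 42 every stiripentol library lay below every control library, which was so for 14.3% of all genes, and in 2 every stiripentol library lay above, against 13.0% of all genes. By role, 3 of 3 tested ELR CXC ligands, 3 of 4 other CXC ligands, 3 of 6 CC ligands, 5 of 10 genes of the IL-1 family, 1 of 4 of the IL-6 family and 1 of 4 of the common gamma chain family fell. No tested chemokine receptor, and none of the tested genes of the IL-10, IL-13, IL-3, IL-5 and IL-17 families, passed the limma test, and no gene of the IL-12 family was tested. Of the genes that fell, Il18r1, Il1rl2, Cxcl15, Cxcl5, Ccl9 and Il7 had a stiripentol mean below 0 and passed the filter through the controls. Both genes that rose, Cxcl10 and Il15, had a control mean below 0 and passed it through the stiripentol libraries. The counts of falls and rises thus depend in part on the filter.

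**Figure D1:**
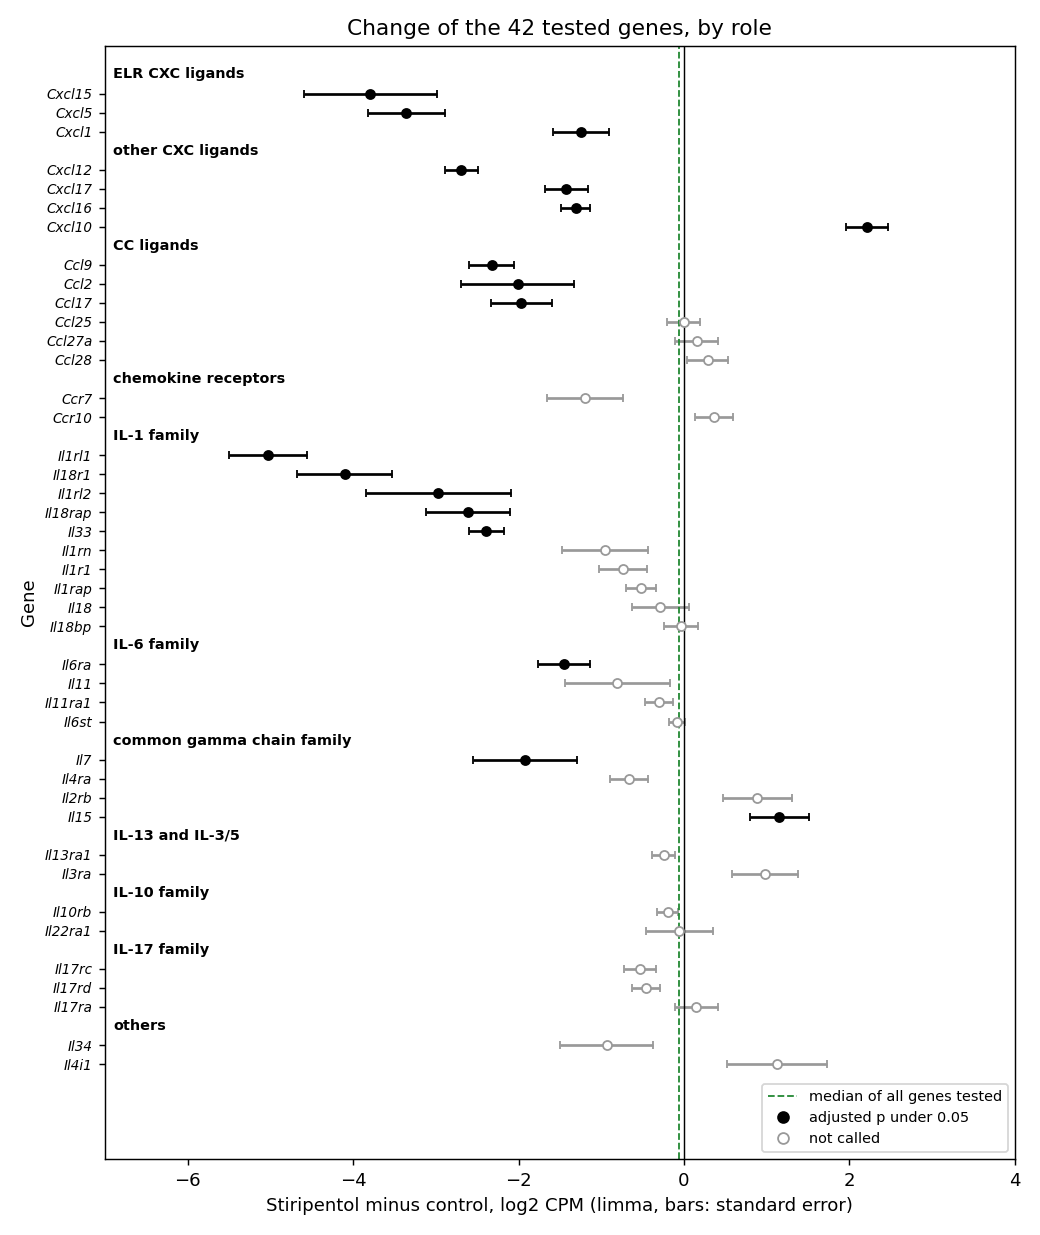
Change of each of the 42 tested genes with stiripentol, on the x axis as stiripentol minus control in log2 CPM with its standard error as a bar, by role on the y axis. Filled points passed an adjusted p of 0.05 and open points did not, and 16 of the 18 filled points lie left of the dashed line, the median of all genes at -0.06.

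The falls were set beside genes that mark other cells. The summed level of 8 fibroblast genes was 404 to 696 CPM in the controls and 152 to 185 CPM with stiripentol, and 4 of the 6 tested ones fell, namely Col3a1 (change of -5.71), Col1a2 (-2.30), Pdgfrb (-1.49) and Pdgfra (-1.27), whereas Col1a1 and Dcn were not called. The change of Col3a1 was -2.95 in set A and -7.56 in set B, and that of Pdgfra -0.12 and -2.03. Col1a2 and Pdgfrb also fell in both sets. Col1a1 and Dcn moved in opposite directions in the sets. The change of Col1a1 was -2.63 in set A and 0.86 in set B, and that of Dcn 1.76 and -1.996. The fibroblast markers Thy1 and Lum had at most 3 reads in a library. The summed level of 6 leukocyte genes was 0.715 to 2.96 CPM in the controls and 0.593 to 3.93 CPM with stiripentol, and that of 4 endothelial genes 0.283 to 0.690 and 0.293 to 1.20 CPM. Epithelial genes summed to 2278 to 2598 CPM in the controls and 1544 to 2145 CPM with stiripentol, neuroendocrine genes to 93.4 to 120 and 127 to 157 CPM, and tuft cell genes to 198 to 244 and 121 to 125 CPM. Within the tuft cell list Dclk1 fell (change of -1.45) and Avil rose (change of 5.01). Pou2f3 and Trpm5 of this list lay below the filter and were not tested. Their changes were -3.52 and -1.65, with every stiripentol library below every control. The part of the fibroblast genes, or of any other list, in the falls was not tested. In a bulk sample, fewer cells that express a gene and less of its RNA in each cell cannot be told apart.

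The largest falls among the tested genes, those of Il1rl1 and Il18r1, were in the IL-1 family. The called falls of this family included a ligand with its own receptor. Il1rl1 encodes ST2, the receptor of Il33, and its levels were 7.97, 7.63, 6.72, 5.45 and 5.71 log2 CPM in controls 1 to 5 and 2.20, 1.99, 1.48, 1.18 and 1.48 in stiripentol 1 to 5. All stiripentol libraries lay below all controls, by several units, and the controls of set B were higher than those of set A. The means of Il1rl1 were 6.70 ± 1.12 and 1.66 ± 0.42 log2 CPM (SD, n = 5 each). The change of Il1rl1 was -5.03 log2 units, 32.7-fold lower (SE 0.47, adjusted p = 0.000123), with -3.48 in set A and -6.06 in set B.

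Il33, an alarmin stored in the nucleus and released from damaged cells, was at 6.70, 6.76, 6.74, 7.51 and 7.64 log2 CPM in controls 1 to 5 and 4.54, 4.42, 4.95, 4.61 and 4.89 in stiripentol 1 to 5. The groups did not overlap, and here the controls of set A were the higher ones. The means of Il33 were 7.07 ± 0.46 and 4.68 ± 0.23 log2 CPM (SD, n = 5 each). The change of Il33 was -2.39 log2 units, 5.24-fold lower (SE 0.21, adjusted p = 9.73e-05), with -3.09 in set A and -1.92 in set B. Ligand and receptor both fell, with the larger fall of the receptor in set B and the larger fall of the ligand in set A.

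Il18r1 and Il18rap encode the binding chain and the accessory chain of the IL-18 receptor. For Il18r1 the levels were 4.46, 4.18, 3.94, 2.79 and 2.71 log2 CPM in controls 1 to 5 and 0.93, 0.68, -1.26, -1.25 and -1.53 in stiripentol 1 to 5. Every stiripentol library was below every control, and the lowest values were the stiripentol libraries of set B. The means of Il18r1 were 3.62 ± 0.81 and -0.48 ± 1.19 log2 CPM (SD, n = 5 each). The change of Il18r1 was -4.10 log2 units, 17.2-fold lower (SE 0.58, adjusted p = 0.000936), with -1.95 in set A and -5.54 in set B. For Il18rap they were 7.01, 6.86, 6.15, 4.32 and 4.68 log2 CPM in controls 1 to 5 and 2.89, 2.68, 3.52, 3.24 and 3.63 in stiripentol 1 to 5. The groups were again apart, the controls of set A lying nearest to the treated libraries. The means of Il18rap were 5.81 ± 1.24 and 3.19 ± 0.40 log2 CPM (SD, n = 5 each). The change of Il18rap was -2.61 log2 units, 6.11-fold lower (SE 0.51, adjusted p = 0.00476), with -1.71 in set A and -3.21 in set B.

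The cytokine that these chains bind, Il18, was at 1.96, 2.20, 0.89, 2.85 and 2.80 log2 CPM in controls 1 to 5 and 1.91, 1.68, 1.99, 1.89 and 1.82 in stiripentol 1 to 5. Its treated libraries lay inside the range of the controls. The means of Il18 were 2.14 ± 0.79 and 1.86 ± 0.12 log2 CPM (SD, n = 5 each). The change of Il18 was -0.28 log2 units (SE 0.34, adjusted p = 0.550), with -1.03 in set A and 0.22 in set B, and the gene was not called. The soluble decoy of this cytokine, Il18bp, had a change of -0.04 log2 units (SE 0.21, adjusted p = 0.909, means 0.72 ± 0.13 and 0.69 ± 0.22), the means being those of control and stiripentol in log2 CPM with their SD, here and below. Thus both chains of the receptor fell while ligand and decoy did not pass the test.

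Il1rl2, the receptor of the IL-36 cytokines, was at 3.24, 3.87, 3.49, -0.28 and -0.04 log2 CPM in controls 1 to 5 and -2.09, -1.52, -0.53, -0.54 and 0.10 in stiripentol 1 to 5. The controls of set B stood far above all other libraries, and the controls of set A overlapped the treated libraries. The means of Il1rl2 were 2.06 ± 2.04 and -0.91 ± 0.88 log2 CPM (SD, n = 5 each). The change of Il1rl2 was -2.97 log2 units, 7.84-fold lower (SE 0.87, adjusted p = 0.0289), with -1.65 in set A and -3.85 in set B. The call was lost when control 1, 2 or 3 or stiripentol 1 or 2 was left out. It was also lost in a fit with no filter and in one with a replicate block by the records' numbers. The highest adjusted p over all settings was 0.0843.

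Among the other tested genes of the family, Il1r1, the signalling receptor for IL-1, had levels of 6.38, 6.27, 6.33, 5.97 and 6.05 log2 CPM in controls 1 to 5 and 4.60, 4.80, 5.97, 5.92 and 6.06 in stiripentol 1 to 5. Stiripentol 1 and 2 alone lay well below the controls. The means of Il1r1 were 6.20 ± 0.18 and 5.47 ± 0.71 log2 CPM (SD, n = 5 each). The change of Il1r1 was -0.73 log2 units (SE 0.29, adjusted p = 0.0843), with -1.32 in set A and -0.35 in set B, which did not pass the test. Il1rn, the natural antagonist of IL-1, was at 6.09, 6.09, 5.61, 3.63 and 3.83 log2 CPM in controls 1 to 5 and 3.64, 3.43, 4.50, 4.40 and 4.53 in stiripentol 1 to 5. Its controls of set A lay among the treated libraries. The means of Il1rn were 5.05 ± 1.22 and 4.10 ± 0.52 log2 CPM (SD, n = 5 each). The change of Il1rn was -0.95 log2 units (SE 0.52, adjusted p = 0.189), with -0.19 in set A and -1.45 in set B. The shared accessory chain Il1rap had a change of -0.52 log2 units (SE 0.18, adjusted p = 0.0566, means 4.33 ± 0.32 and 3.81 ± 0.21).

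Of these receptor genes, Il1rl2, Il1rl1, Il18r1, Il18rap and Il1r1 lie next to each other and to Il1r2 on chromosome 1 (chr1:40084692-40551707, build GRCm38), and they are the 6 protein-coding genes that RefSeq places in these 467 kb. In order along the chromosome, Il1r2 was below the filter with 1 read in all, Il1r1 was not called, and Il1rl2, Il1rl1, Il18r1 and Il18rap fell. The changes of the last 4 were -2.97, -5.03, -4.10 and -2.61 on the log2 scale. Il1rl1 ends at 40465418 and Il18r1 begins at 40465552, so that reads that run past the end of the one could be counted for the other. The sources used here do not state how such reads were counted.

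**Figure D2:**
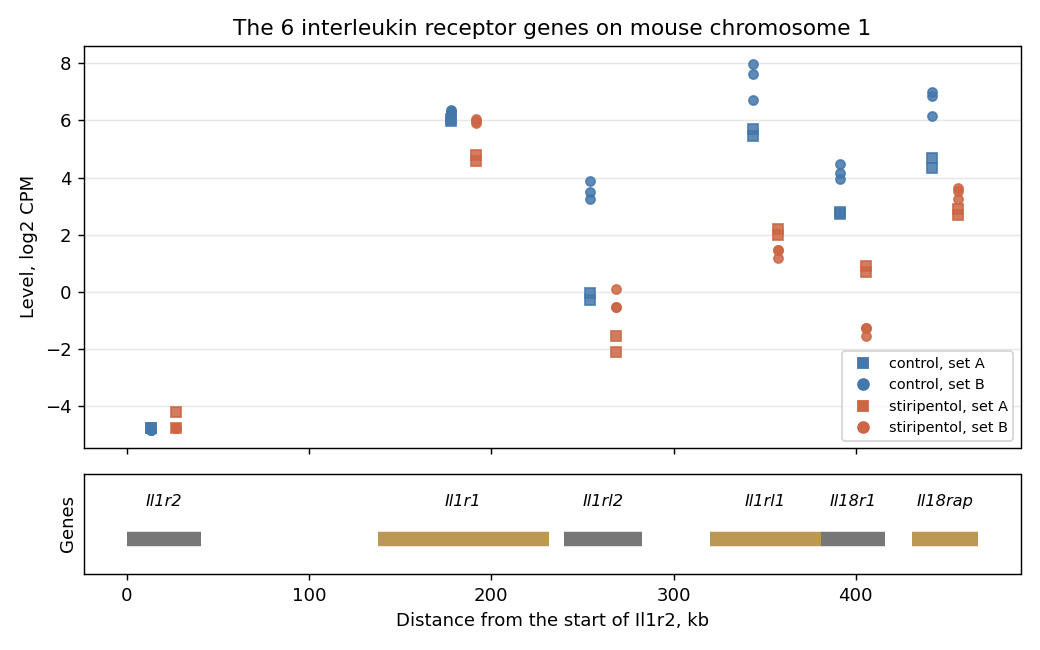
Levels of the 6 interleukin receptor genes of chromosome 1, in log2 CPM on the y axis, at their distance in kb from the start of Il1r2 on the x axis, with 1 point per library (blue control, orange stiripentol, squares set A, circles set B). The lower strip draws each gene to scale. Il1r1 overlaps between the groups, Il1rl1, Il18r1 and Il18rap are apart, and Il1rl2 overlaps where the controls of set A meet the treated libraries of set B.

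The ELR CXC ligands, which attract neutrophils through Cxcr2, fell in each of the 3 tested members. Cxcl15, also called lungkine, was at 1.05, 1.13, 0.80, 4.15 and 4.15 log2 CPM in controls 1 to 5 and -1.00, -0.18, -2.25, -2.86 and -1.39 in stiripentol 1 to 5. The controls of set A far exceeded those of set B, and both sets lay above all treated libraries. The means of Cxcl15 were 2.26 ± 1.73 and -1.54 ± 1.05 log2 CPM (SD, n = 5 each). The change of Cxcl15 was -3.79 log2 units, 13.9-fold lower (SE 0.80, adjusted p = 0.00702), with -4.74 in set A and -3.16 in set B.

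Cxcl5 had levels of 3.37, 3.68, 3.40, 3.06 and 2.60 log2 CPM in controls 1 to 5 and -1.26, -1.32, 0.73, 0.51 and 0.68 in stiripentol 1 to 5. The groups were far apart, and stiripentol 1 and 2 were the lowest. The means of Cxcl5 were 3.22 ± 0.41 and -0.13 ± 1.06 log2 CPM (SD, n = 5 each). The change of Cxcl5 was -3.35 log2 units, 10.2-fold lower (SE 0.47, adjusted p = 0.000896), with -4.13 in set A and -2.84 in set B. Cxcl1, the mouse ligand also known as KC, was at 4.12, 4.30, 3.47, 2.89 and 2.63 log2 CPM in controls 1 to 5 and 1.83, 1.85, 2.48, 2.44 and 2.60 in stiripentol 1 to 5. The groups were apart by a narrow margin, between control 5 and stiripentol 5. The means of Cxcl1 were 3.48 ± 0.73 and 2.24 ± 0.37 log2 CPM (SD, n = 5 each). The change of Cxcl1 was -1.24 log2 units, 2.37-fold lower (SE 0.34, adjusted p = 0.0225), with -0.92 in set A and -1.46 in set B. This call was lost when control 1, control 2 or stiripentol 2 was left out and with a replicate block by the records' numbers. The highest adjusted p over all settings was 0.0853. The other 2 members of this class, and their receptor Cxcr2, lay below the filter.

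Of the other CXC ligands, 3 fell and 1 rose. Cxcl12, the ligand of Cxcr4 and Ackr3, which holds stem cells and leukocytes in their niche, was at 8.03, 7.81, 8.67, 7.54 and 7.52 log2 CPM in controls 1 to 5 and 5.10, 5.19, 5.32, 5.15 and 5.33 in stiripentol 1 to 5. The treated libraries lay within a narrow band far below the lowest control. The means of Cxcl12 were 7.91 ± 0.47 and 5.22 ± 0.10 log2 CPM (SD, n = 5 each). The change of Cxcl12 was -2.69 log2 units, 6.47-fold lower (SE 0.20, adjusted p = 3.56e-05), with -2.39 in set A and -2.90 in set B. Its decoy receptor Ackr3 fell as well, with a change of -1.47 (SE 0.32, adjusted p = 0.00771) in all, -0.30 in set A and -2.25 in set B.

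Cxcl16, a ligand that is also anchored in the membrane and binds Cxcr6, had levels of 3.50, 3.27, 3.58, 3.14 and 3.08 log2 CPM in controls 1 to 5 and 2.19, 2.01, 2.13, 1.71 and 1.99 in stiripentol 1 to 5. No treated library reached the lowest control. The means of Cxcl16 were 3.31 ± 0.22 and 2.00 ± 0.19 log2 CPM (SD, n = 5 each). The change of Cxcl16 was -1.31 log2 units, 2.48-fold lower (SE 0.18, adjusted p = 0.000746), with -1.01 in set A and -1.51 in set B. Cxcl17, a chemokine of mucosal surfaces, was at 2.24, 2.09, 2.14, 2.91 and 3.01 log2 CPM in controls 1 to 5 and 1.22, 1.47, 0.96, 0.93 and 0.71 in stiripentol 1 to 5. The groups did not overlap, and the controls of set A were the highest. The means of Cxcl17 were 2.48 ± 0.44 and 1.06 ± 0.29 log2 CPM (SD, n = 5 each). The change of Cxcl17 was -1.42 log2 units, 2.68-fold lower (SE 0.26, adjusted p = 0.00334), with -1.61 in set A and -1.29 in set B.

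Cxcl10, an interferon-induced ligand of Cxcr3, rose. Its levels were -0.09, 0.23, -0.31, -0.49 and -0.41 log2 CPM in controls 1 to 5 and 1.50, 1.77, 2.26, 2.10 and 2.39 in stiripentol 1 to 5. Every treated library was above every control, and the controls were close to the filter limit. The means of Cxcl10 were -0.21 ± 0.29 and 2.00 ± 0.36 log2 CPM (SD, n = 5 each). The change of Cxcl10 was 2.22 log2 units, 4.65-fold higher (SE 0.25, adjusted p = 0.000327), with 2.08 in set A and 2.31 in set B. The rise was thus close to the same size in both sets.

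**Figure D3:**
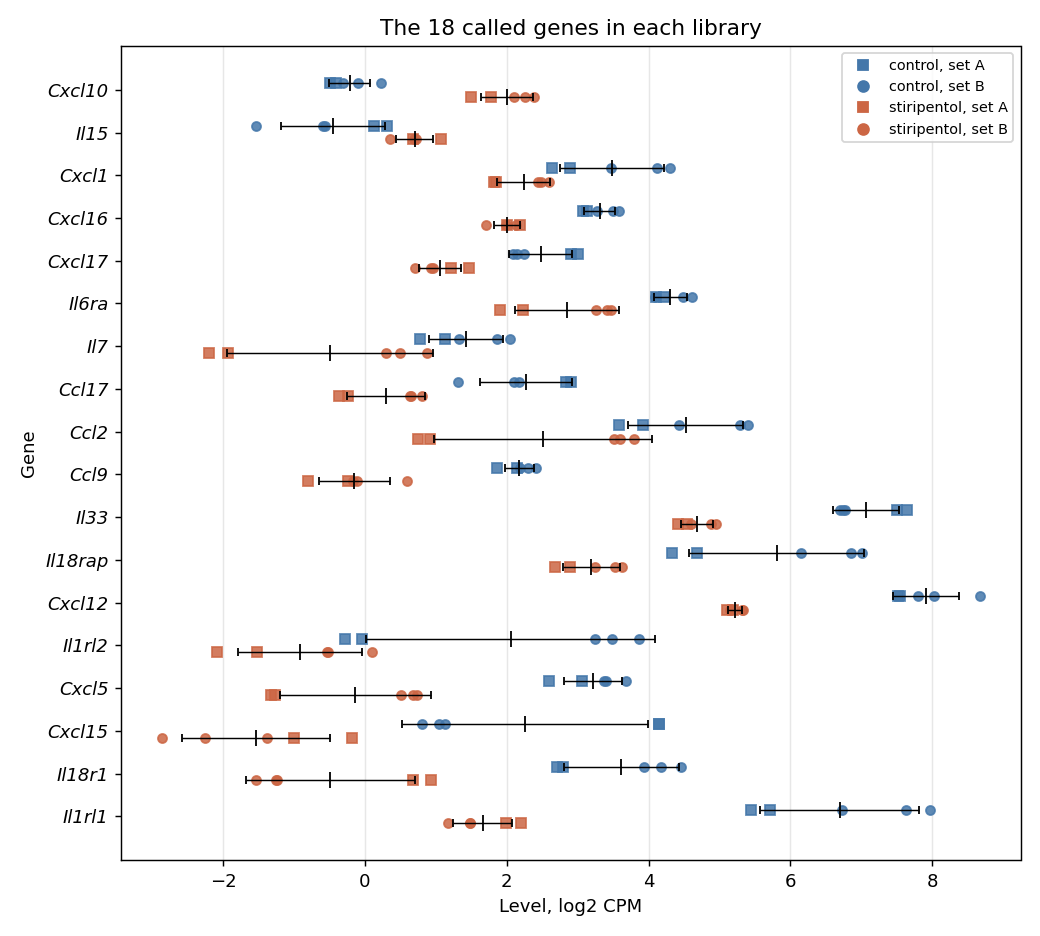
Level of each of the 18 called genes in each library, in log2 CPM on the x axis, with blue for control and orange for stiripentol, squares for set A and circles for set B. Ticks and bars are the group mean and SD (n = 5). Cxcl10 and Il15 lie to the right with stiripentol and the other 16 to the left, and Ccl2, Il1rl2 and Il7 show groups that overlap.

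Among the CC ligands, 3 of the 6 tested fell and none rose. Ccl9, a ligand of Ccr1, was at 2.18, 2.30, 2.41, 1.87 and 2.14 log2 CPM in controls 1 to 5 and -0.24, -0.81, 0.59, -0.17 and -0.11 in stiripentol 1 to 5. The groups were apart and the controls were close to each other. The means of Ccl9 were 2.18 ± 0.20 and -0.15 ± 0.50 log2 CPM (SD, n = 5 each). The change of Ccl9 was -2.33 log2 units, 5.02-fold lower (SE 0.27, adjusted p = 0.000353), with -2.53 in set A and -2.19 in set B. Ccl17, a ligand of Ccr4 that attracts T helper 2 cells, was at 2.17, 2.11, 1.31, 2.91 and 2.84 log2 CPM in controls 1 to 5 and -0.24, -0.36, 0.64, 0.65 and 0.80 in stiripentol 1 to 5. The groups were apart, and control 3 was the lowest control. The means of Ccl17 were 2.27 ± 0.65 and 0.30 ± 0.55 log2 CPM (SD, n = 5 each). The change of Ccl17 was -1.97 log2 units, 3.91-fold lower (SE 0.37, adjusted p = 0.00384), with -3.17 in set A and -1.16 in set B.

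Ccl2, the monocyte attractant that binds Ccr2, was at 5.40, 5.28, 4.43, 3.58 and 3.92 log2 CPM in controls 1 to 5 and 0.91, 0.74, 3.80, 3.60 and 3.51 in stiripentol 1 to 5. Stiripentol 1 and 2 were far below all other libraries, and stiripentol 3 and 4 overlapped the controls of set A. The means of Ccl2 were 4.52 ± 0.81 and 2.51 ± 1.54 log2 CPM (SD, n = 5 each). The change of Ccl2 was -2.01 log2 units, 4.03-fold lower (SE 0.68, adjusted p = 0.0488), with -2.92 in set A and -1.40 in set B. The call was lost when control 1, 2, 3 or 5 or stiripentol 1 or 2 was left out. It was also lost in a fit with no filter and in one with a replicate block by the records' numbers. The highest adjusted p over all settings was 0.134. Ccl25, a ligand of Ccr9, had a change of -0.00 log2 units (SE 0.20, adjusted p = 0.993, means 2.23 ± 0.33 and 2.23 ± 0.15). For the ligands of Ccr10 the changes were 0.16 log2 units (SE 0.26, adjusted p = 0.666, means 1.60 ± 0.45 and 1.76 ± 0.29) for Ccl27a and 0.29 log2 units (SE 0.25, adjusted p = 0.399, means 0.36 ± 0.23 and 0.64 ± 0.35) for Ccl28. None of these 3 passed the test, and Ccl27a overlaps Il11ra1 on chromosome 4 and has near-identical copies, so that its reads may be shared.

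Only 2 chemokine receptors were tested. Ccr7, which guides cells towards lymph nodes, was at -0.24, 0.35, 1.11, 1.37 and 1.18 log2 CPM in controls 1 to 5 and -1.65, -0.94, 0.26, -0.20 and 0.31 in stiripentol 1 to 5. The groups overlapped, and stiripentol 1 and 2 were the lowest. The means of Ccr7 were 0.76 ± 0.68 and -0.45 ± 0.84 log2 CPM (SD, n = 5 each). The change of Ccr7 was -1.20 log2 units (SE 0.46, adjusted p = 0.0747), with -2.58 in set A and -0.28 in set B. Ccr10 had a change of 0.37 log2 units (SE 0.23, adjusted p = 0.244, means 0.17 ± 0.21 and 0.54 ± 0.25). Neither was called, and the other 9 receptors of this class lay below the filter.

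In the IL-6 family the specific receptor chain fell and the shared chain did not pass the test. Il6ra was at 4.49, 4.61, 4.10, 4.22 and 4.11 log2 CPM in controls 1 to 5 and 1.90, 2.23, 3.42, 3.26 and 3.47 in stiripentol 1 to 5. All treated libraries lay below all controls, and stiripentol 1 and 2 lay lowest. The means of Il6ra were 4.30 ± 0.23 and 2.85 ± 0.73 log2 CPM (SD, n = 5 each). The change of Il6ra was -1.45 log2 units, 2.73-fold lower (SE 0.32, adjusted p = 0.00857), with -2.10 in set A and -1.02 in set B. Il6st, which encodes gp130, the signalling chain of the whole family, was at 8.04, 8.14, 8.43, 8.13 and 8.30 log2 CPM in controls 1 to 5 and 8.05, 8.27, 8.07, 8.07 and 8.15 in stiripentol 1 to 5. Its groups overlapped within a narrow range. The means of Il6st were 8.21 ± 0.16 and 8.12 ± 0.09 log2 CPM (SD, n = 5 each). The change of Il6st was -0.09 log2 units (SE 0.10, adjusted p = 0.525), with -0.06 in set A and -0.11 in set B. Il11 had a change of -0.81 log2 units (SE 0.63, adjusted p = 0.352, means 0.52 ± 0.93 and -0.29 ± 1.26) and its receptor Il11ra1 of -0.30 log2 units (SE 0.17, adjusted p = 0.205, means 4.30 ± 0.32 and 3.99 ± 0.15), and neither was called.

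The common gamma chain family held 1 fall and 1 rise. Il7, a survival factor of lymphocytes, was at 2.05, 1.86, 1.33, 0.78 and 1.13 log2 CPM in controls 1 to 5 and -2.19, -1.93, 0.30, 0.49 and 0.88 in stiripentol 1 to 5. Stiripentol 1 and 2 were by far the lowest, and stiripentol 5 was above control 4. The means of Il7 were 1.43 ± 0.52 and -0.49 ± 1.45 log2 CPM (SD, n = 5 each). The change of Il7 was -1.92 log2 units, 3.79-fold lower (SE 0.62, adjusted p = 0.0422), with -3.02 in set A and -1.19 in set B. This call was lost when control 1, 2, 3 or 5 or stiripentol 1 or 2 was left out. It was also lost in a fit with no filter and in one with a replicate block by the records' numbers. The highest adjusted p over all settings was 0.112.

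Il15, which sustains natural killer cells and memory T cells, was at -0.59, -1.53, -0.56, 0.13 and 0.32 log2 CPM in controls 1 to 5 and 1.08, 0.68, 0.69, 0.71 and 0.35 in stiripentol 1 to 5. The treated libraries lay above the controls, with control 5 at the edge of the treated range. The means of Il15 were -0.45 ± 0.73 and 0.70 ± 0.26 log2 CPM (SD, n = 5 each). The change of Il15 was 1.15 log2 units, 2.22-fold higher (SE 0.36, adjusted p = 0.0359), with 0.66 in set A and 1.48 in set B. The highest adjusted p of Il15 over all settings was 0.0833. Without control 1, 2 or 3 or stiripentol 1, 2, 3 or 4, Il15 was not called. Nor was it called in a fit with no filter or in one with a replicate block by the records' numbers. In those fits Cxcl10 alone was left of the 2 rises among the tested genes. Il2rb, the chain that IL-2 and IL-15 share, was at -1.42, -0.73, 0.35, 0.46 and 0.68 log2 CPM in controls 1 to 5 and 1.01, 1.20, 0.38, 0.64 and 0.54 in stiripentol 1 to 5. Controls 1 and 2 were below all other libraries. The means of Il2rb were -0.13 ± 0.90 and 0.75 ± 0.34 log2 CPM (SD, n = 5 each). The change of Il2rb was 0.89 log2 units (SE 0.42, adjusted p = 0.134), with 0.54 in set A and 1.12 in set B, which did not pass the test. Il4ra, the receptor chain for IL-4 and IL-13, was at 5.90, 5.83, 5.66, 5.92 and 5.91 log2 CPM in controls 1 to 5 and 4.46, 4.72, 5.56, 5.60 and 5.55 in stiripentol 1 to 5. Its groups did not overlap, and within set B controls and treated libraries were close to each other. The means of Il4ra were 5.84 ± 0.11 and 5.18 ± 0.55 log2 CPM (SD, n = 5 each). The change of Il4ra was -0.67 log2 units (SE 0.23, adjusted p = 0.0532), with -1.33 in set A and -0.23 in set B, just above the threshold.

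None of the other receptor families gave a call. For IL-13 and IL-3, Il13ra1 had a change of -0.24 log2 units (SE 0.14, adjusted p = 0.205, means 6.46 ± 0.14 and 6.22 ± 0.27), and Il3ra was at 2.20, 2.11, 2.14, 3.91 and 3.92 log2 CPM in controls 1 to 5 and 4.01, 3.96, 3.70, 3.86 and 3.66 in stiripentol 1 to 5. Only controls 1 to 3 of Il3ra stood apart, below all other libraries. The means of Il3ra were 2.86 ± 0.96 and 3.84 ± 0.15 log2 CPM (SD, n = 5 each). The change of Il3ra was 0.98 log2 units (SE 0.40, adjusted p = 0.0868), with 0.07 in set A and 1.59 in set B. In the IL-17 family, the receptor chains Il17rc, Il17rd and Il17ra were tested. Il17rc had a change of -0.53 log2 units (SE 0.20, adjusted p = 0.0646, means 5.95 ± 0.27 and 5.41 ± 0.37), with -1.22 in set A and -0.07 in set B. Il17rd had a change of -0.46 log2 units (SE 0.17, adjusted p = 0.0631, means 5.32 ± 0.22 and 4.87 ± 0.29), with -0.92 in set A and -0.15 in set B. Both changes were thus larger in set A. Il17ra, the common chain, had a change of 0.15 log2 units (SE 0.26, adjusted p = 0.684, means 5.02 ± 0.42 and 5.17 ± 0.48).

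For the IL-10 family, Il10rb, the chain shared by several of its receptors, had a change of -0.19 log2 units (SE 0.13, adjusted p = 0.268, means 5.44 ± 0.21 and 5.25 ± 0.12). Il22ra1, the chain that binds IL-22 on epithelial cells, was at -0.19, -0.61, -0.49, 1.17 and 0.87 log2 CPM in controls 1 to 5 and -0.36, -0.02, 0.28, 0.74 and -0.17 in stiripentol 1 to 5. Its controls of set A were the highest libraries, and within set B each treated library lay above each control. The means of Il22ra1 were 0.15 ± 0.82 and 0.10 ± 0.43 log2 CPM (SD, n = 5 each). The change of Il22ra1 was -0.05 log2 units (SE 0.41, adjusted p = 0.928), with -1.21 in set A and 0.72 in set B.

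Il34, a second ligand of the receptor Csf1r, was at 3.15, 3.30, 2.73, 3.19 and 3.21 log2 CPM in controls 1 to 5 and 0.59, 0.71, 3.21, 3.21 and 3.19 in stiripentol 1 to 5. Stiripentol 1 and 2 were far below every other library, and the treated libraries of set B lay with the controls. The means of Il34 were 3.11 ± 0.22 and 2.18 ± 1.40 log2 CPM (SD, n = 5 each). The change of Il34 was -0.93 log2 units (SE 0.56, adjusted p = 0.228), with -2.55 in set A and 0.14 in set B. Il4i1, which the naming rule takes in although it encodes an enzyme that oxidises amino acids, had a change of 1.13 log2 units (SE 0.61, adjusted p = 0.180, means -0.55 ± 0.82 and 0.58 ± 1.23). Neither was called.

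The set comparison covered all tested members. Each of the 18 called genes moved the same way in both sets, 9 with the larger change in set A and 9 with the larger change in set B. Of all 42 tested genes 36 had the same sign in both, or 85.7%, compared with 63.0% of all genes tested in the table. Among the 3414 called genes of the table, 99.3% had the same sign in both sets, and the count of 18 is therefore near what any called genes show. Of these 3414, 2210 had the larger change in set A and 1204 in set B. The 4 called receptors of chromosome 1 all had their larger fall in set B. Ccl2, Ccl9, Ccl17, Il7, Il33, Il6ra, Cxcl5, Cxcl15 and Cxcl17 had theirs in set A. The difference between sets was not tested, since the sets were defined from these same values.

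**Figure D4:**
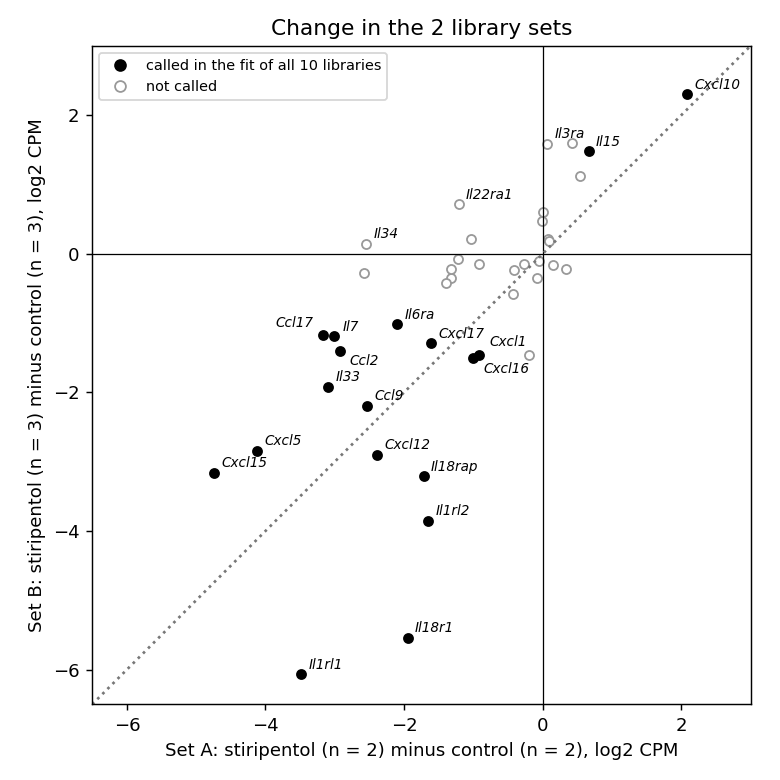
Change of each tested gene within set A (x axis, 2 stiripentol minus 2 control libraries) against its change within set B (y axis, 3 minus 3), both in log2 CPM, with called genes filled and named. All 18 filled points lie in the lower left or upper right field, Il1rl1 and Il18r1 below the dotted line of equal change and Ccl17 and Il7 above it.

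Of the 60 entries at or below the filter, 18 reached 10 reads in at least 3 libraries of a group and are given as whole reads per library, recovered from the deposited values. When all 26335 genes were fitted with no filter, 4 of them fell and 2 rose. The share of all genes called in that fit is not given here, so these counts have no background to be read against. Ccr1, the receptor of Ccl9, had 112, 107, 57, 16 and 2 reads in controls 1 to 5 and 0, 0, 1, 0 and 4 reads with stiripentol (change of -3.69 log2 units, SE 0.75, adjusted p = 0.0117). Only control 5, the shallowest library, came near the treated counts. Il16 had 28, 26, 43, 23 and 15 reads in the controls and 1, 3, 2, 5 and 3 with stiripentol (change of -2.70 log2 units, SE 0.32, adjusted p = 0.000882), and the groups were far apart.

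Il17d, a member of the IL-17 family, had 22, 11, 26, 23 and 10 reads in the controls and 1, 3, 7, 2 and 7 with stiripentol (change of -1.93 log2 units, SE 0.39, adjusted p = 0.0113). Ccl7, a relative and neighbour of Ccl2 on chromosome 11, had 52, 52, 44, 53 and 23 reads in the controls and 30, 29, 9, 12 and 10 with stiripentol (change of -1.50 log2 units, SE 0.39, adjusted p = 0.0319). Ccl7 was lowest in the treated libraries of set B, and Ccl2 in those of set A. The rises were those of Ccl5, a ligand of Ccr1, and of Il6. Ccl5 had 23, 35, 35, 23 and 9 reads in the controls and 48, 47, 94, 118 and 99 with stiripentol (change of 1.48 log2 units, SE 0.37, adjusted p = 0.0273). Il6 had 6, 7, 9, 3 and 1 reads in the controls and 14, 10, 30, 30 and 38 with stiripentol (change of 1.79 log2 units, SE 0.43, adjusted p = 0.0229), so that every treated library held more than every control, at few reads throughout.

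The other 12 were not called. Il15ra, the chain that presents IL-15, had 83, 80, 73, 104 and 40 reads in the controls and 10, 11, 59, 57 and 53 with stiripentol (change of -1.42 log2 units, SE 0.55, adjusted p = 0.121), with no overlap on the log2 CPM scale. Il2rg, the common gamma chain itself, had 42, 51, 23, 22 and 10 reads in the controls and 6, 4, 15, 11 and 16 with stiripentol (change of -1.44 log2 units, SE 0.43, adjusted p = 0.0524), also without overlap. Cxcr4, the receptor of Cxcl12, had 17 to 148 reads in the controls and 30 to 119 with stiripentol, and it was higher in the libraries of set A in both groups. Cxcl11, which shares the receptor of Cxcl10 and lies beside it on chromosome 5, had 43 to 90 reads in the controls and 23 to 39 with stiripentol (change of -1.03 log2 units, SE 0.35, adjusted p = 0.0796), overlapping on the log2 CPM scale. Il1f9, a ligand of Il1rl2, had no read in controls 1 to 3, 25 and 13 in controls 4 and 5, and 1, 2, 19, 15 and 20 with stiripentol. The libraries with the most Il1rl2, controls 1 to 3, were those with no read of Il1f9. Ccl20, Il17re, Il12rb1, Il20rb, Il13ra2, Il5ra and Il4 overlapped between the groups, with changes between -2.19 for Il20rb and 0.60 for Ccl20. The remaining 42 entries had at most 20 reads in any library, 17 of them at most 3 reads in all libraries together, and 4 had no read.

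Other genes of cytokine signalling were taken from a list of 73, of which 55 were tested. Of these 14 fell, or 25.5%, and 6 rose, or 10.9%, against the 14.1% and 13.6% of all genes, with a median change of -0.20. Besides Ackr3, the largest falls were those of Nfkbie, an inhibitor of NF-kB, with a change of -2.16 (SE 0.71, adjusted p = 0.0439), and of Arrb1, an arrestin that turns off receptors coupled to G proteins, with a change of -1.78 (SE 0.31, adjusted p = 0.00274). The change of Nfkbie was -3.85 in set A and -1.03 in set B, and that of Arrb1 -2.83 and -1.08. Among the rises were those of Arrb2, the other arrestin, with a change of 0.75 (SE 0.16, adjusted p = 0.00842), and of Nfkbib, another inhibitor of NF-kB, with 0.63 (SE 0.12, adjusted p = 0.00409). In both genes every treated library lay above every control. Without stiripentol 2 the falls came to 8, and without control 1 or control 2 to 9.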

How the data were processed

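RNA sequencing of 10 libraries of mSCLC-2405 cells, 5 control and 5 stiripentol, was analysed from the table of 26335 entries that the authors deposited. Its values are log2 CPM, which the authors normalized with GENAVi, with a prior of 0.837 to 2.38 reads added. A gene with no read is at -4.82 log2 CPM in controls 1 to 3 and at -4.74 in the other 7 libraries, so the prior was smaller per read in those 3. The submitters' processing notes name build mm10. The aligner, annotation and counting rule are not given in the sources used here. The methods name a 3' mRNA kit and the sample records a total RNA kit, so levels were not compared between genes. The deposited p-values, q-values and fold changes of the authors were not used.

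Groups followed the titles of the records and columns their names. The members and lists were chosen with earlier results of these data known. Genes with mean log2 CPM above 0 (12306) were fitted with limma 3.58.1 (lmFit and eBayes with a trend, R 4.3.3), stiripentol against control, with no covariate and Benjamini-Hochberg adjustment over all of them. The threshold for a call was an adjusted p of 0.05. On log2 values with a prior, changes of low genes are understated. The fit was checked on simulated data. All members above the filter are named, as are members below it that reached 10 reads in 3 libraries of a group or were called with no filter, and the 3 largest falls and rises among called genes of the cytokine signalling list, of which 1 is not reported here.

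The log2 CPM were converted back to whole reads, 100% of the values up to 1000 reads coming out whole within 0.1, and gave totals of 22375625 to 65299372 reads. No pair of libraries agreed within sampling noise (lowest chi-square per gene 7.25). Alternatives were a replicate block by the numbers of the records and, chosen after seeing the data, by those of the study's expression table, a term for the library set, each set alone, each library left out, other scalings, filters and a pseudocount of 1 CPM, and limma voom on the recovered reads. RefSeq GRCm38.p6 gave positions for 99 of 100 symbols and the 5' flanks.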

Additional observations from a re-analysis of the deposited data

Results flagged for a closer look

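Il22ra1 moved in opposite directions in the 2 library sets, with a change of -1.21 log2 units in set A (2 against 2 libraries) and 0.72 in set B (3 against 3), every treated library of a set lying on 1 side of the controls of that set. The change in set A minus that in set B was -1.93 log2 units, and this difference was not tested. Il34 in control 3 was at 2.73 log2 CPM, apart from the other controls at 3.15 to 3.30. The total of control 5 was 22375625 reads, apart from the other controls at 57991647 to 65299372 reads. Of the 86 groups of 5 libraries examined, 2 held such a value far from the rest, against 4.3 that chance would give.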

How the results depend on the processing

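None of the 18 calls changed direction under the settings tried, and of 373 values of the 18 called genes under other settings 337 stayed past the threshold and 36 did not. Under every setting in which they were fitted, 13 of the 18 calls held, and those of Ccl2, Cxcl1, Il15, Il1rl2 and Il7 were each lost in some. The 16 falls were 27 in set A alone, and 12 to 18 when 1 library was left out. The 2 rises were 5 with a term for the library set, 6 in set B alone, 0 with a filter at a mean above 1, and 1 to 3 when 1 library was left out. The 14 falls of the signalling list were 22 with the set term, 30 in set A, 22 in set B and 8 to 14 when 1 library was left out, and its 6 rises were 11, 10, 19 and 4 to 7. With a replicate block by the records' numbers the members gave 14 falls and 1 rise and the list 9 falls and 4 rises. The correlations of same-numbered deviations were -0.24 to 0.06, and by the order of the study's expression table, tried after seeing the data, 0.084 to 0.22, so that neither numbering had every pair over 0.1. A replicate block by that order gave 19 falls and 2 rises among the members, Il1r1, Il1rn and Il1rap passing the threshold in addition, and 14 falls and 7 rises in the list. Quantile normalization moved the median of all genes by 0.10 log2 units, with 20 falls and 2 rises among the members. The causes of these shifts were not tested. With no filter 17 members fell and 3 rose. The share of all genes called under each of these settings is not given here. A higher or lower count under a setting is therefore not a stronger or weaker effect in the members or the list. Depth limits the lowest of the tested genes, which had as few as 6 reads in a library.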
